A study of Mus musculus with 8 samples.

Results

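The genes described here are 45 genes that drive a cell from G1 through DNA replication and mitosis, measured by RNA-seq in the whole uterus of mice at postnatal day 10 (PD10). They were taken by gene symbol from a list written with earlier results of these data known, and all 45 were found among the 27179 genes counted. All 45 passed the filter on low counts, which kept 16658 genes, and the lowest count of any of them in a library was 171. The 4 control mice were Ezh2 f/f, with both alleles of *Ezh2* floxed and no Cre recombinase. The 4 *Ezh2 Amhr2*-Cre cKO mice were Ezh2 f/f with Cre expressed from *Amhr2*, which is active in cells derived from the mesenchyme of the reproductive tract and not in the uterine epithelium, so a whole uterus holds recombined and unrecombined cells together. The comparison asks whether transcripts of the cell cycle machinery differed in the uterus when *Ezh2*, the catalytic subunit of Polycomb repressive complex 2, was deleted in the mesenchyme.

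The 8 libraries, numbered in the labels as replicates 1 to 4 of each genotype and taken here as separate uteri, held between 25287141 and 36685807 counts on genes. Levels are given as CPM, the count of a gene scaled to the depth of its library, with trimmed mean of M values (TMM) factors. *Ezh2* itself had 49.5, 40.5, 54.7 and 35.4 CPM in control replicates 1 to 4 and 30.4, 38.0, 40.7 and 38.0 CPM in cKO replicates 1 to 4. The genotypes overlapped, and the log2 fold change of -0.29 (SE 0.13, n = 4 and 4) had an adjusted p of 0.247 in edgeR's quasi-likelihood test. The counts cover the whole gene, so the loss of the floxed exons was not checked directly. Markers of stroma (8 of 8 tested, summed 9602 to 15092 CPM), smooth muscle (7 of 7, 7392 to 9389 CPM) and epithelium (8 of 8, 1221 to 1696 CPM) were present in every library, as a uterus should show. In bulk tissue, fewer cycling cells and less RNA per cycling cell cannot be told apart.

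The cell cycle is an ordered series of steps. In G1, D-type cyclins with CDK4 or CDK6 and E-type cyclins with CDK2 phosphorylate the retinoblastoma protein and release E2F transcription factors, which switch on genes for DNA replication. The MCM helicase is loaded at origins with the help of CDC6 and CDT1, and geminin prevents a second loading. Later, MYBL2 and FOXM1 switch on genes for mitosis, in which CDK1 with B-type cyclins, Polo-like and Aurora kinases and motor proteins condense and separate the chromosomes. The neonatal uterus is a growing organ in which glands form by budding of the luminal epithelium, and both epithelium and mesenchyme divide at this age.

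Transcription of these genes is timed by short sequences near the transcription start. Promoter windows from 250 bases before to 50 bases after the start were available from RefSeq (GRCm38.p6) for 35 of the 45 genes, in 38 windows. Each window was searched on both strands for CCAAT, the letters bound by NF-Y, for TTTGAA or TTCGAA, the cell cycle genes homology region (CHR) of mitotic promoters, and for TTTNNCGC, an E2F site. These 4 stretches, each made of the 160 bases before the start, are shown because they hold the most matches among S phase and mitotic genes whose stretch touches no exon in GENCODE M21 and lies outside the RefSeq span of the gene. Motif letters on either strand are in capitals.
Mcm6, GRCm38.p6, chr1:128359706-128359865, minus strand: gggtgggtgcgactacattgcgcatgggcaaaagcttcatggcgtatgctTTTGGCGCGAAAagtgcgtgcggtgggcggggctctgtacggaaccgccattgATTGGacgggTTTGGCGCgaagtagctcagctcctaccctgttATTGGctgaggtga
Mcm3, GRCm38.p6, chr1:20820313-20820472, minus strand: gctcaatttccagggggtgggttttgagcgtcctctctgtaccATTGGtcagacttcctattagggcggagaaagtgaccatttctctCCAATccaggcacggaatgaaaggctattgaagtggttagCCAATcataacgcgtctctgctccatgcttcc
Ccnb2, GRCm38.p6, chr9:70421555-70421714, minus strand: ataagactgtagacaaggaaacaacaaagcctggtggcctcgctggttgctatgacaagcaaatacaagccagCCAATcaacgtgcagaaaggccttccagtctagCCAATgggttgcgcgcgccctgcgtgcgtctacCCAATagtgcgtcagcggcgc
Kif11, GRCm38.p6, chr19:37376222-37376381, plus strand: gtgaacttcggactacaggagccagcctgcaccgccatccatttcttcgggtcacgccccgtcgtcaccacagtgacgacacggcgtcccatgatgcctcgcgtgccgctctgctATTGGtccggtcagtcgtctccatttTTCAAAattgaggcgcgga

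The *Mcm6* stretch holds 3 E2F matches, of which those starting at -110 and -106 overlap, and CCAAT letters at -57 and -14, counted from the base before the start. In *Mcm3* the stretch has CCAAT letters at -117, -72 and -32, and the 2 E2F matches of its window lie after the start, at 20 and 39. *Ccnb2* has CCAAT letters at -87, -54 and -21, and its window holds CHR letters outside the stretch, at -167 and 5. In *Kif11* the CCAAT letters at -45 are followed by a CHR at -19. Among windows of the mitotic genes, 15 of 16 (93.8%) held CCAAT and 13 of 16 (81.2%) a CHR, but 6.25% an E2F match. Among windows of the S phase genes, 75.0% held CCAAT, 16.7% a CHR and 58.3% an E2F match. The shares over all 32851 promoter windows were 37.4%, 19.2% and 5.17%. Of the 6 windows of G1 cyclins and CDKs, 33.3% held CCAAT, none a CHR and 33.3% an E2F match. A match of letters is a description and not a site known to be bound, and these windows were not tested against other promoters.

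**Figure D1:**
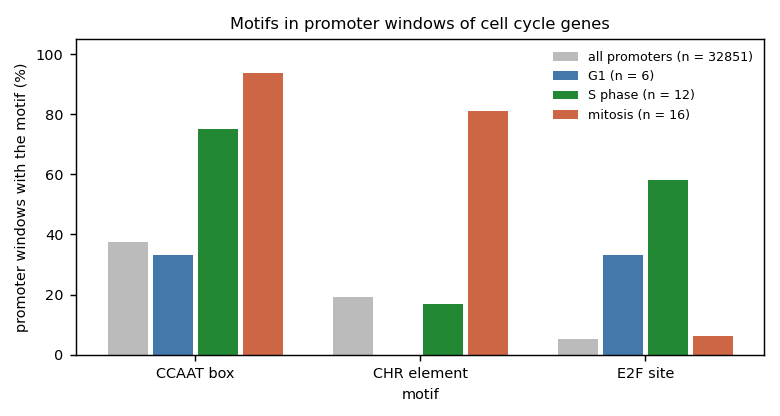
Share of promoter windows (y axis, percent) with CCAAT, CHR or E2F letters (x axis) for all RefSeq windows and for windows of G1, S phase and mitotic genes. CHR letters were in 81.2% of mitotic windows and 16.7% of S phase windows, and E2F letters in 6.25% and 58.3%.

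None of the 45 cell cycle genes passed the test for a difference between cKO and control uteri. The edgeR quasi-likelihood test gave 0 genes with an adjusted p under 0.05, against a background of 5.34% of all genes tested, and 0 genes past both that threshold and a fold change of 2, against 1.3%. Only *Ccnd1* had an unadjusted p under 0.05, against 21.2% of all genes tested. DESeq2 and limma-voom also called 0 of 45, each with 1 gene at an unadjusted p under 0.05. In no gene did the 4 cKO libraries lie apart from the 4 control libraries, a separation seen in 12.3% of all genes tested. Log2 fold changes were between -0.18 (*Ccne2*) and 0.19 (*E2f2*), 22 above and 23 below 0, with a median of -0.0016 beside 0.00044 over all genes tested.

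The data also bound how large a difference in the whole-uterus level could have gone unseen. They do not bound a change within the recombined cells alone. The 95% interval of the fold change, unadjusted for the number of genes, lay within 2-fold either way for 45 of 45 genes, within 1.5-fold for 43 and within 1.3-fold for 33. The 2 genes reaching past 1.5-fold were *Ccne2*, whose log2 interval was -0.59 to 0.23, and *Gmnn*, at -0.28 to 0.60. Among genes tested whose mean level lay in the range of the 45 genes, 93.5% had an interval within 1.5-fold and 78.4% within 1.3-fold, beside 95.6% and 73.3% of the cell cycle genes. The median log2 fold change was -0.07 for the 13 S phase genes, 0.02 for the 20 mitotic genes, -0.07 for the 8 G1 genes and 0.05 for the 4 transcription factors.

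**Figure D2:**
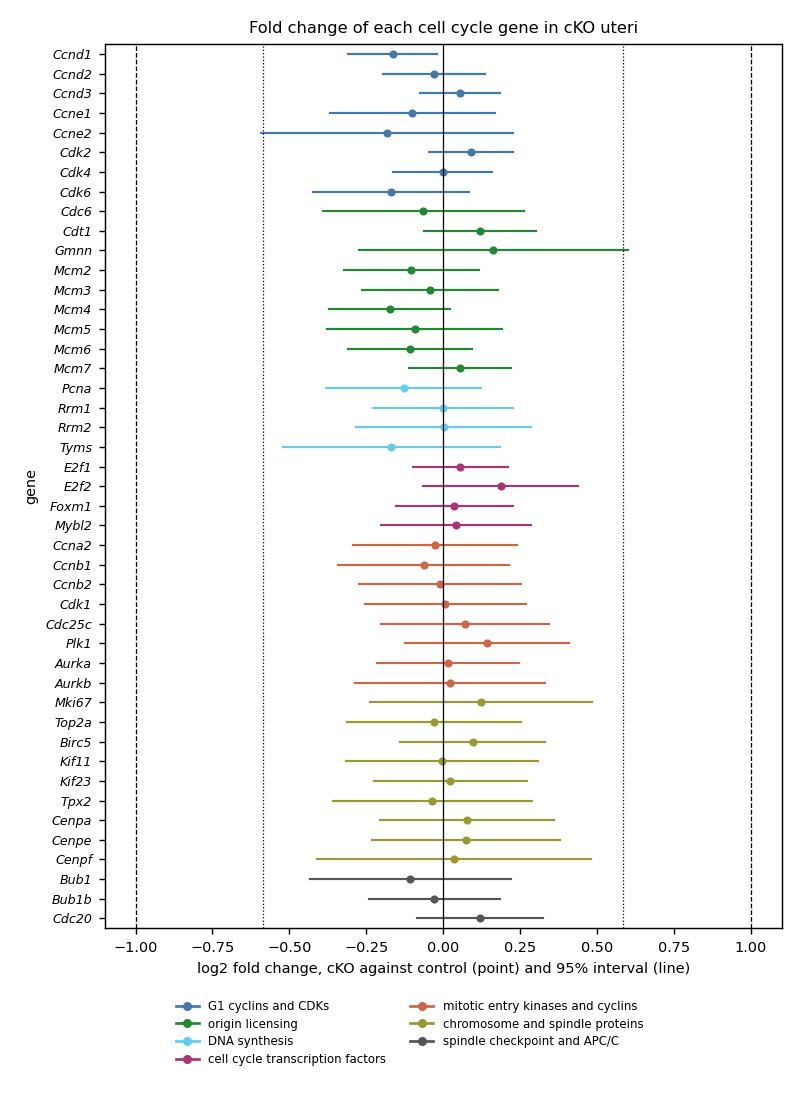
Log2 fold change of each gene in cKO against control uteri (x axis, point) with its 95% interval (line), coloured by role, with n = 4 libraries per genotype. Dotted lines mark 1.5-fold and dashed lines 2-fold, and the intervals of 43 of 45 genes stay inside the dotted lines.

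Among the G1 cyclins and CDKs, *Ccnd1* (Entrez 12443, chromosome 7, 144929931 to 144939831, GRCm38), the D-type cyclin that growth factor signals raise, had the smallest p-value of all 45 genes. Its level was 270.3, 241.3, 251.4 and 256.7 CPM in control and 234.2, 216.7, 208.3 and 250.4 CPM in cKO libraries. The genotypes overlapped because cKO replicate 4 lay above control replicate 2. The log2 fold change was -0.17 (SE 0.07), with an adjusted p of 0.175 in edgeR, and an exact two-sided permutation test over the 70 arrangements of the libraries gave p = 0.057, where the smallest possible value is 0.029. *Ccnd2*, the most abundant of the 45 genes by CPM, had 444.0, 455.9, 398.1 and 459.7 CPM in control and 436.3, 396.4, 397.2 and 491.8 CPM in cKO libraries, which spanned the control range (log2 fold change -0.03, SE 0.08, edgeR adjusted p = 0.860). *Cdk2*, the partner of cyclin E, had 57.0, 52.8, 58.2 and 60.2 CPM in control and 64.5, 63.3, 56.8 and 58.4 CPM in cKO libraries. Its 2 highest libraries were cKO replicates 1 and 2, and its log2 fold change of 0.09 (SE 0.06) had an edgeR adjusted p of 0.440. *Cdk6* had 14.0, 17.0, 11.7 and 14.6 CPM in control and 12.8, 13.1, 11.0 and 14.2 CPM in cKO libraries, with overlap (log2 fold change -0.17, SE 0.12, edgeR adjusted p = 0.433). Of the remaining members, *Ccnd3*, *Cdk4*, *Ccne1* and *Ccne2* had log2 fold changes of 0.06, -0.0024, -0.10 and -0.18.

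Origin licensing genes were spread on both sides of 0, with 3 higher and 6 lower in cKO means. *Mcm4* (Entrez 17217, chromosome 16, 15623897 to 15637400), a helicase subunit, had 120.5, 99.6, 119.6 and 137.7 CPM in control and 107.9, 100.9, 97.6 and 117.1 CPM in cKO libraries. Control replicate 2 lay among the cKO libraries, and the log2 fold change of -0.17 (SE 0.09) had an edgeR adjusted p of 0.291. *Mcm6*, whose promoter is printed above, had 211.1, 174.7, 218.3 and 236.3 CPM in control and 197.0, 177.4, 184.8 and 220.7 CPM in cKO libraries. Control replicate 2 was its lowest library (log2 fold change -0.11, SE 0.09, edgeR adjusted p = 0.534). *Mcm2* had 91.1, 75.4, 94.7 and 107.4 CPM in control and 91.2, 78.5, 79.1 and 94.5 CPM in cKO libraries, again with overlap (log2 fold change -0.10, SE 0.10, edgeR adjusted p = 0.584). *Cdt1*, which loads the helicase, had 31.6, 27.7, 32.9 and 34.4 CPM in control and 39.2, 33.3, 32.5 and 32.8 CPM in cKO libraries. Only cKO replicate 1 lay above the control range (log2 fold change 0.12, SE 0.08, edgeR adjusted p = 0.438). The other licensing genes, *Cdc6*, *Gmnn*, *Mcm3*, *Mcm5* and *Mcm7*, had log2 fold changes from -0.09 (*Mcm5*) to 0.16 (*Gmnn*), the latter from 9.09 to 20.01 CPM in control mice, a coefficient of variation of 31.1%, the highest of the 9 licensing genes.

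Of the genes for DNA synthesis, *Pcna*, the sliding clamp of DNA polymerase, had 172.3, 140.2, 198.4 and 211.9 CPM in control and 164.2, 157.7, 153.7 and 185.8 CPM in cKO libraries. All 4 cKO libraries lay inside the control range (log2 fold change -0.13, SE 0.11, edgeR adjusted p = 0.554). *Tyms*, thymidylate synthase, had 57.9, 45.5, 74.1 and 69.1 CPM in control and 50.3, 46.7, 55.4 and 67.3 CPM in cKO libraries, also inside the control range (log2 fold change -0.17, SE 0.16, edgeR adjusted p = 0.576). *Rrm1*, the large subunit of ribonucleotide reductase, had 192.5, 155.9, 206.8 and 231.8 CPM in control and 183.1, 185.5, 204.5 and 213.4 CPM in cKO libraries. Its means were 196.8 ± 31.7 and 196.6 ± 14.7 CPM (SD, n = 4 each), and the small subunit *Rrm2* had 46.1 ± 9.73 and 46.2 ± 1.70 CPM.

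All 4 transcription factors had small positive log2 fold changes and none passed the test. *E2f2* (Entrez 242705, chromosome 4, 136172274 to 136196057), an activating E2F, had 13.1, 11.9, 15.3 and 17.6 CPM in control and 17.4, 15.4, 15.6 and 17.5 CPM in cKO libraries. Control replicate 4 was its highest library, and the log2 fold change of 0.19 (SE 0.12) had an edgeR adjusted p of 0.382. *Foxm1* had 49.1, 44.2, 53.1 and 59.8 CPM in control and 47.8, 52.4, 56.6 and 54.7 CPM in cKO libraries, inside the control range (log2 fold change 0.04, SE 0.09, edgeR adjusted p = 0.851). *E2f1* and *Mybl2* had log2 fold changes of 0.05 and 0.04.

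The 20 mitotic genes had 12 log2 fold changes above and 8 below 0. *Ccna2*, a cyclin that also acts in S phase, had 100.7, 85.1, 121.0 and 129.6 CPM in control and 97.8, 99.3, 113.9 and 117.4 CPM in cKO libraries. The cKO libraries lay inside the control range (log2 fold change -0.03, SE 0.12, edgeR adjusted p = 0.923). *Plk1*, Polo-like kinase 1, had 30.0, 24.0, 34.3 and 37.7 CPM in control and 32.5, 32.1, 38.6 and 36.0 CPM in cKO libraries, with cKO replicate 3 just above the highest control (log2 fold change 0.14, SE 0.12, edgeR adjusted p = 0.540). *Ccnb1*, *Ccnb2*, *Cdk1*, *Cdc25c*, *Aurka* and *Aurkb* had log2 fold changes between -0.06 (*Ccnb1*) and 0.07 (*Cdc25c*).

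*Mki67* (Entrez 17345, chromosome 7, 135689784 to 135716450), which encodes the proliferation marker Ki-67, had 213.2, 210.3, 258.1 and 340.4 CPM in control and 240.0, 250.1, 321.7 and 301.1 CPM in cKO libraries. Its control libraries held both its lowest and its highest value, and the log2 fold change of 0.12 (SE 0.16) had an edgeR adjusted p of 0.702. *Top2a*, topoisomerase II alpha, had 265.1 ± 52.0 and 259.7 ± 26.9 CPM (SD, n = 4 each). The other chromosome and spindle genes, *Birc5*, *Kif11*, *Kif23*, *Tpx2*, *Cenpa*, *Cenpe* and *Cenpf*, had log2 fold changes between -0.04 (*Tpx2*) and 0.10 (*Birc5*). Of the checkpoint genes, *Cdc20*, an activator of the anaphase-promoting complex (APC/C), had 50.2, 46.4, 58.5 and 61.0 CPM in control and 58.4, 52.5, 66.2 and 57.7 CPM in cKO libraries. Only cKO replicate 3 exceeded the control range (log2 fold change 0.12, SE 0.09, edgeR adjusted p = 0.497). *Bub1b* had 91.1, 73.7, 90.3 and 105.01 CPM in control and 84.0, 79.6, 94.3 and 95.03 CPM in cKO libraries, all cKO libraries inside the control range (log2 fold change -0.03, SE 0.10, edgeR adjusted p = 0.892), and *Bub1* had a log2 fold change of -0.11.

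The larger differences were between mice of the same genotype. Control replicate 2 was the lowest of the 8 libraries for 39 of 45 genes, as it was for 15.7% of all genes tested, and control replicate 4 the highest for 29, as it was for 9.94%. Control replicate 4 exceeded control replicate 2 in 43 of 45 genes (all genes tested, 47.7%), with a median ratio of 1.49. The summed level of the 45 genes was 4194, 3715, 4563 and 5016 CPM in control and 4195, 4015, 4376 and 4669 CPM in cKO libraries, so the cKO uteri lay inside the control range. Over all 45 genes the median level in a library, as a percent of each gene's mean over 8 libraries, was 95.3, 79.5, 106.4 and 117.0% in control and 97.1, 92.7, 105.4 and 105.7% in cKO libraries. For all genes tested this median is near 100% in both genotypes (means 99.5% and 99.5%).

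**Figure D3:**
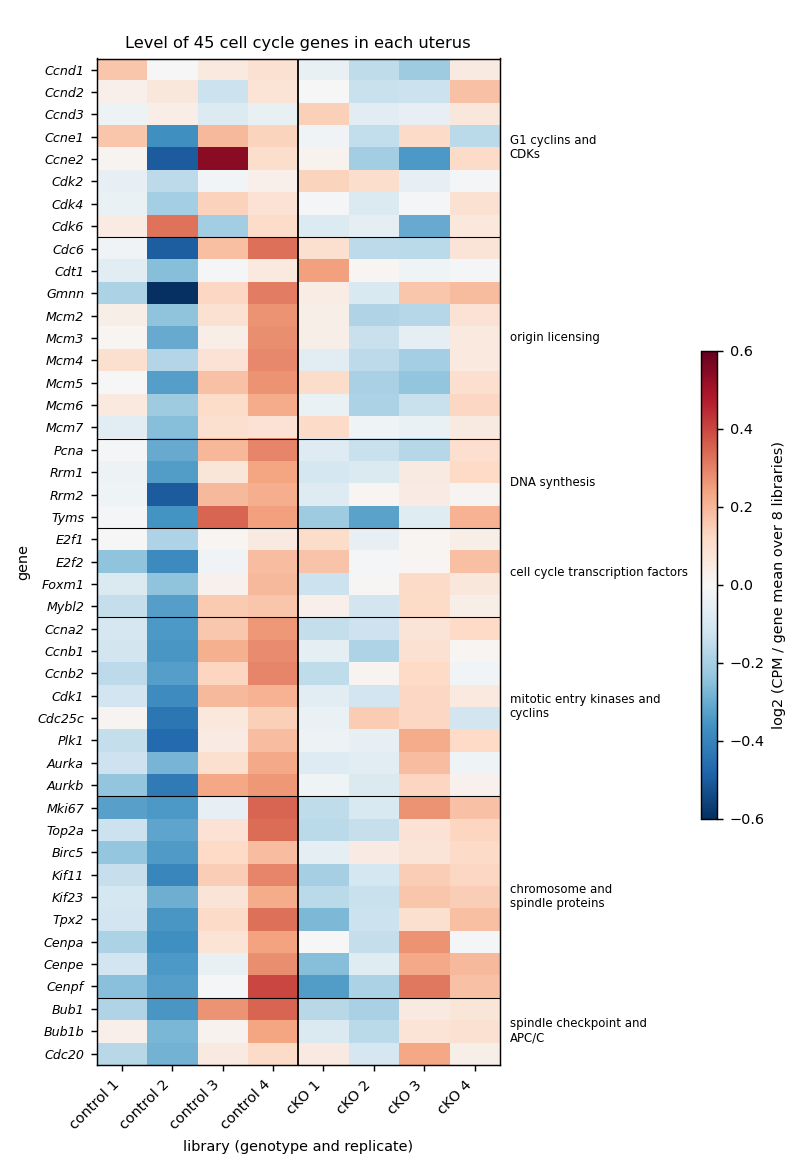
Level of the 45 genes (rows, grouped by role) in the 8 libraries (columns), as log2 of CPM over the gene's mean, with red above and blue below that mean. The column of control replicate 2 is the lowest for 39 genes and that of control replicate 4 the highest for 29.

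The spread between control mice was wider than between cKO mice for most of these genes. The coefficient of variation had a median of 17.4% over control and 8.91% over cKO libraries, and it was larger in control for 40 of 45 genes. Over all genes tested the medians were 8.56% and 9.38%, and 45.8% had the larger value in control. The G1 cyclins and CDKs did not share this, with medians of 8.41% and 8.70% and the larger value in control for 4 of 8 genes, whereas all 20 mitotic genes and 12 of 13 S phase genes did. These counts describe genes that vary together in the same 8 libraries, and a difference in spread between the genotypes was not tested. The sum over mitotic genes divided by that over S phase genes was 1.11, 1.199, 1.21 and 1.29 in control and 1.13, 1.26, 1.48 and 1.26 in cKO libraries, with means of 1.2004 ± 0.073 and 1.28 ± 0.143 (SD, n = 4 each). The genotypes overlapped, and cKO replicate 3 had the highest ratio.

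The balance of genes above and below 0 moved with each library left out. Without control replicate 2 the median log2 fold change was -0.09, with 36 of 45 genes lower in cKO, 8 at an unadjusted p under 0.05 and 0 with an adjusted p under 0.05 in edgeR. Without control replicate 4 it was 0.09, with 11 genes lower and again 0 called. Dropping any of the other 6 libraries gave medians between -0.04 (31 genes lower, cKO replicate 3 dropped) and 0.04 (15 genes lower, control replicate 3 dropped), with 0 called. Epithelial markers were also lowest in control replicate 2, at a sum of 1221 CPM against 1272 to 1457 CPM in the other controls, and markers of stroma (12704 CPM against 9602 to 11621), smooth muscle (9388 against 7392 to 8152), endothelium (820.4 against 643.5 to 708.5) and macrophages (142.8 against 93.2 to 125.9) were highest there among controls. Their part in the level of the cell cycle genes was not tested.

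**Figure D4:**
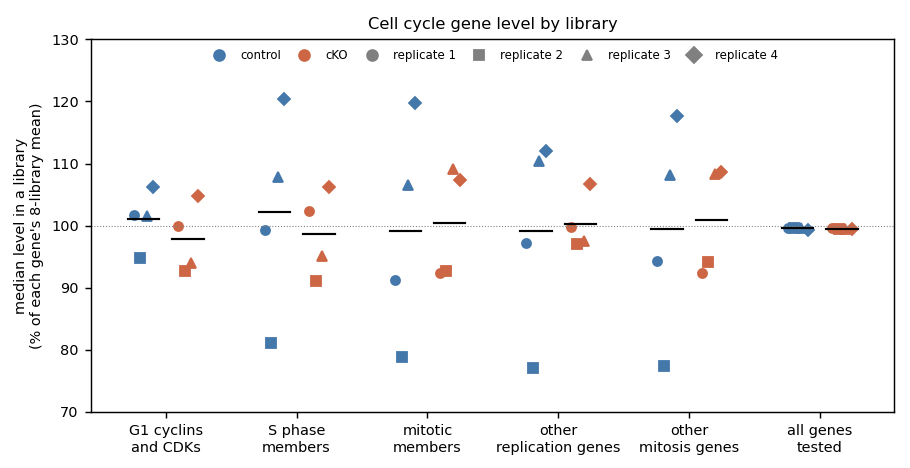
Median level in each library (y axis, percent of each gene's mean over 8 libraries) for G1, S phase and mitotic genes, the other replication and mitosis genes and all genes tested (x axis); symbols mark replicates and black lines the mean of 4 libraries. Control replicate 2 lies lowest and control replicate 4 highest in S phase and mitotic genes (mitosis, 78.8% and 119.8%), with the cKO libraries between them.

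Per kilobase of exon (GENCODE M21), the levels averaged over 8 libraries were highest for *Cdk4* (110.6 CPM per kb), *Pcna* (72.1), *Ccnd1* (51.2), *Ccnd2* (46.2) and *Mcm6* (43.4). They were lowest for *Cdk6* (0.969 CPM per kb), *Cdc25c* (2.09) and *Ccne2* (2.67). Thus *Cdk4* far exceeded *Cdk6*, its alternative partner for cyclin D, and the D-type cyclin *Ccnd3* was at 18.9 CPM per kb. Among helicase subunits the level per length went from 12.8 CPM per kb (*Mcm2*) to 43.4 (*Mcm6*). The length counts every annotated exon of a gene (6.96 kb for *Mcm2*, 4.67 kb for *Mcm6*), so levels per kilobase depend on the annotation. *Ccna2*, *Mcm5* and *Mki67* were level at 26.5 CPM per kb.

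Other genes of the same pathways were counted in the same way. Of 35 other replication genes, all tested, 0 had an adjusted p under 0.05 in edgeR (background 5.34%) and 0 an unadjusted p under 0.05 (background 21.2%). DESeq2 and limma-voom called 0, and the median log2 fold change was 0.01. The extremes were *Clspn* (0.17), a replication fork protein, and *Lig1* (0.15), DNA ligase I, above 0, and *Pola1* (-0.14), a subunit of DNA polymerase alpha, and *Slbp* (-0.13), the histone mRNA binding protein, below 0. Of 55 other mitosis genes, all tested, 0 were called in edgeR against the same 5.34%, with 1 at an unadjusted p under 0.05 against 21.2%, and the median was 0.02. The 2 lowest were *Hmmr* (-0.16) and *Ect2* (-0.15), and the second highest was *Cenph* (0.27, SE 0.16).

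*Spc25* (Entrez 66442, chromosome 2, 69193895 to 69206213), a subunit of the NDC80 kinetochore complex, stood apart from the other mitosis genes. It had 51.5, 38.2, 70.8 and 65.97 CPM in control and 72.7, 73.4, 84.7 and 87.1 CPM in cKO libraries, so that every cKO library lay above every control library, as in 5.9% of all genes tested. Its log2 fold change was 0.49 (SE 0.17), with an adjusted p of 0.146 in edgeR and an exact permutation p of 0.029, the smallest possible. DESeq2, which called 9.04% of all genes tested, gave an adjusted p of 0.0238, and limma-voom, which called 4.98%, gave 0.0809. An alternative chosen after seeing the data took the mean level of the other replication and mitosis genes, *Spc25* among them, as a covariate. There edgeR gave an adjusted p of 0.000119 and called 9.83% of all genes tested. *Spc25* was picked as the highest log2 fold change of the 55 mitosis genes, so these p-values are those of a picked extreme.

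Among 28 genes listed as brakes of the cell cycle or their regulators, all tested, 4 rose (background 2.62%) and 1 fell (background 2.71%). This list holds inhibitors of CDKs, pocket proteins, E2Fs that mostly repress, subunits of the DREAM complex, kinases that hold back CDK1, p53 with its inhibitor *Mdm2*, and the *Btg* and cyclin G genes, and its median log2 fold change was 0.02. *Cdkn2a*, counted in the 4 that rose, passed the filter on low counts only through its cKO libraries. *Cdkn1c* (Entrez 12577, chromosome 7, 143458339 to 143461059), the imprinted CDK inhibitor p57, had 108.9, 96.1, 109.6 and 118.9 CPM in control and 121.2, 136.1, 159.97 and 138.0 CPM in cKO libraries, with no overlap. Its log2 fold change was 0.36 (SE 0.09, edgeR adjusted p = 0.0305). *Cdkn1b* (Entrez 12576, chromosome 6, 134920401 to 134925525), the CDK inhibitor p27, had 81.3, 90.6, 87.2 and 82.6 CPM in control and 106.8, 101.4, 97.1 and 96.4 CPM in cKO libraries. All cKO values were above all control values, and the log2 fold change was 0.23 (SE 0.06, edgeR adjusted p = 0.0331).

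*Pkmyt1*, which like *Wee1* phosphorylates and restrains CDK1, had 9.97, 10.3, 11.0 and 10.8 CPM in control and 17.4, 17.3, 13.03 and 12.05 CPM in cKO libraries. It was highest in cKO replicates 1 and 2, and its log2 fold change was 0.51 (SE 0.12, edgeR adjusted p = 0.0343). *Wee1* went the other way, with 54.8, 52.4, 54.8 and 59.4 CPM in control and 47.1, 43.9, 46.6 and 50.3 CPM in cKO libraries (log2 fold change -0.24, SE 0.06, edgeR adjusted p = 0.0476). The genotypes did not overlap in the lower direction for 4 of the 28 brakes (6.43% of all genes tested) and in the higher direction for 4 (5.9%). *Cdkn2a*, the locus of p16 and p19ARF, a classic Polycomb target, was near the limit of detection at 0.126, 0.155, 0.321 and 0.275 CPM in control and 0.544, 0.502, 0.554 and 0.595 CPM in cKO libraries, or 4 to 18 counts. It was the only brake past 2-fold, with a log2 fold change of 1.298 (SE 0.35, edgeR adjusted p = 0.0484). Control replicates 1 and 2 lay under the 0.2 CPM of the filter, so *Cdkn2a* entered the test only through its cKO libraries. Its p-values are therefore not separate support for a rise. The exact permutation p was 0.029 for each of these 5 genes.

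Of the other CDK inhibitors, *Cdkn1a*, p21, had 6.81, 6.61, 7.53 and 6.67 CPM in control and 6.17, 5.45, 6.53 and 4.90 CPM in cKO libraries, with a log2 fold change of -0.26 (SE 0.12) and an edgeR adjusted p of 0.247, although the genotypes did not overlap. *Cdkn2b*, *Cdkn2c* and *Cdkn2d* had log2 fold changes of 0.73, 0.23 and 0.08 and were not called. The pocket proteins *Rb1*, *Rbl1* and *Rbl2* were at 0.04, -0.07 and -0.15. *Lin52*, a subunit of the DREAM complex, had a log2 fold change of -0.25 (SE 0.09, edgeR adjusted p = 0.115), without overlap between genotypes.

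The 5 calls among the brakes were close to the threshold. Leaving out each library in turn kept the direction of all 5, but *Cdkn1c* was called in 4 of 8 such fits, *Cdkn1b*, *Wee1* and *Pkmyt1* in 2 of 8 and *Cdkn2a* in 0 of 8. When control replicate 1, control replicate 3 or cKO replicate 2 was dropped, 0 brakes were called in edgeR. Dropping control replicate 4, or either of cKO replicates 1 and 3, left 1 call, and dropping control replicate 2 left 3. Dropping cKO replicate 4 gave 5 calls among the brakes, in a fit that called 10.7% of all genes tested. These were *Cdkn1b*, *Cdkn1c*, *Wee1*, *Pkmyt1* and *Ccng1* (log2 fold change -0.25), named after its values were seen, while *Cdkn2a* was not called. On all 8 libraries *Ccng1* was not called in the main edgeR fit. It was called there with DESeq2 (log2 fold change -0.20, adjusted p = 0.0391) and with the covariate used for *Spc25* (-0.21, edgeR adjusted p = 0.0288). Markers of fat (6 of 7 listed were tested) moved with genotype in 3 of the cKO libraries, with sums of 1.95 to 4.06 CPM in control and 86.1, 203.6, 92.4 and 4.03 CPM in cKO libraries, and *Plin1* was at 0 in control replicate 4. In cKO replicate 4 the sum was within the control range, but *Adrb3* (2.10 CPM, controls 0.915 to 1.18) and *Fabp4* (1.61 CPM, controls 0.659 to 1.43) were above every control library. Markers of NK cells (5 of 6 tested) summed to 6.12 to 9.40 CPM in control and 1.75 to 2.91 CPM in cKO libraries. Of the other marker lists, 2 of 4 skeletal muscle and 1 of 8 stromal markers tested were called, both higher (background 2.62%), as were 4 of 5 NK cell markers (lower, background 2.71%) and 1 of 6 fat markers (higher), and 0 were called in edgeR among epithelial, smooth muscle, endothelial, macrophage, ovary and oviduct, red blood cell or T and B cell markers. Median log2 fold changes were 0.23 for stromal (6 of 8 above 0), 0.195 for epithelial (8 of 8), 0.18 for endothelial (5 of 6) and 0.12 for smooth muscle markers (7 of 7). The part of these cells in the calls was not tested.

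**Figure D5:**
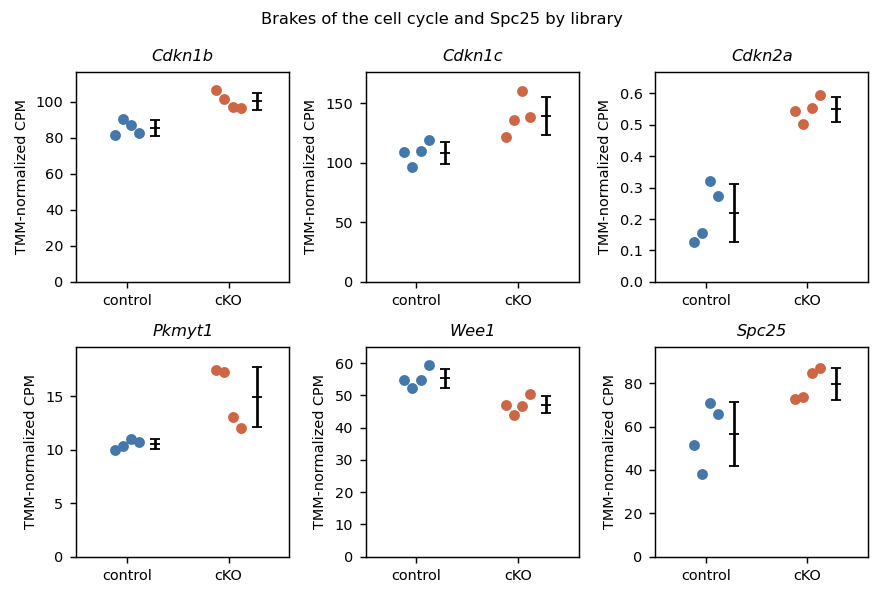
TMM-normalized CPM (y axes, from 0) of 5 brakes of the cell cycle and *Spc25* in each library (points, in the order of replicates 1 to 4), with mean and SD of 4 libraries (black). The genotypes do not overlap in any panel; *Wee1* is lower in cKO and the rest are higher.

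Immediate early genes, which are switched on within minutes of growth factor signals, precede entry into the cycle. Of 16 listed, 15 were tested, 0 rose (background 2.62%) and 1 fell (background 2.71%) in edgeR. DESeq2 called 2. *Egr2* (Entrez 13654, chromosome 10, 67534469 to 67542188), a zinc finger transcription factor, had 5.61, 6.42, 7.28 and 4.37 CPM in control and 2.99, 3.92, 3.79 and 3.01 CPM in cKO libraries. The genotypes did not overlap (log2 fold change -0.78, SE 0.17, edgeR adjusted p = 0.0215). The call was lost when control replicate 1, control replicate 3 or cKO replicate 1 was dropped, with edgeR adjusted p of 0.0555, 0.0652 and 0.0716. *Egr1* had a log2 fold change of -0.23 (SE 0.10), *Jun* of 0.32 (SE 0.12) and *Dusp1*, a phosphatase of MAP kinases, of 0.49 (SE 0.15), with edgeR adjusted p of 0.214, 0.173 and 0.0815. The median of the 15 genes was 0.17, with 10 above and 5 below 0.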

How the data were processed

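Total RNA of whole uteri from 4 control and 4 cKO mice at PD10 was sequenced (TruSeq stranded mRNA library). According to the methods and the submitters' processing notes, the authors used Trimmomatic and FastQC on the reads, HISAT2 for alignment to GRCm38, and featureCounts. They deposited raw counts for 27179 Entrez genes, without normalization. The annotation release and strand setting are not given in the sources used here, so counts of overlapping and antisense genes are uncertain. The authors' deposited table of their own edgeR comparison was used only to pair identifiers with symbols, and its log2 fold change, p-value and score columns were not used. Coordinates came from a RefSeq gene table (GRCm38), exon lengths from GENCODE M21.

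Here, 16658 genes whose CPM exceeded 0.2 in 4 or more libraries were tested with edgeR 4.0.16 in R 4.3.3, with TMM, glmQLFit (robust = TRUE), glmQLFTest and Benjamini-Hochberg adjustment over all genes tested. The standard error was the log2 fold change divided by the square root of F, the 95% interval used the test's degrees of freedom, and fold changes had a prior count of 0.125. Exact permutation tests used log2(CPM + 0.1). The test was checked on simulated counts. The limit for a gene without counts (3 counts) was 0.0818 to 0.119 CPM by library, for counting error only. Every one of the 28 library pairs differed by more than counting noise (chi-square per gene 7.80 to 31.8). The labels give no batch and do not say more on how mice were chosen, so p-values measure the spread between these samples.

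The 45 genes and the lists were chosen with earlier results of these data known. All 45 are reported. Values by library are given for the 12 smallest p-values and the most abundant gene of each role, and, of the other lists, for called genes. They are also given for *Spc25* and *Cdkn1a*, which the rule names for the size of their log2 fold change and which edgeR did not call. The other named genes of those lists are the 2 highest and 2 lowest log2 fold changes at a mean of at least 1 CPM. Further genes (*Cdkn2b*, *Cdkn2c*, *Cdkn2d*, the pocket proteins, and remaining members) were named for their role. Alternatives were DESeq2 1.42.0, limma-voom (limma 3.58.1), other scalings, filters and robust = FALSE, a test against 1.2-fold (glmTreat), a replicate block, leaving out each library, and 2 chosen after seeing the data (cKO replicate 4 alone, and a covariate of the other replication and mitosis genes).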

Additional observations from a re-analysis of the deposited data

Results flagged for a closer look

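*Ccne1*, an E-type cyclin, had 10.8 CPM in control replicate 2, away from the other controls at 15.2 to 15.9 CPM. The gap was 0.870 of the range of the 4 libraries. *Cdt1* had 39.2 CPM in cKO replicate 1, away from the other cKO libraries at 32.5 to 33.3 CPM, with a gap of 0.875 of the range. Each gene was checked in both genotypes, 90 groups of 4 libraries in all, and chance alone sets apart a library in about 1 in 20 groups. Of 38 further groups checked, of the genes named from the other lists, 0 had such a library.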

How the results depend on the processing

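The count of cell cycle genes with an adjusted p under 0.05 was 0 in all 20 fits made (the edgeR fit and 19 alternatives), and the count past 2-fold was 0 in those and in a test against 1.2-fold. These counts do not weigh alike: of all genes tested, 5.34% were called with all 8 libraries in edgeR, 2.55% to 10.7% with a library left out and 0.228% with cKO replicate 4 alone. The smallest adjusted p of any of the 45 genes in these fits was 0.0505 (*Ccnd1*, without cKO replicate 4). Leaving out each library moved the median log2 fold change from -0.09 to 0.09 for all 45 genes, from -0.19 to 0.05 for S phase genes and from -0.08 to 0.11 for mitotic genes. Of the other lists, replication genes kept 0 calls in the 20 fits. The mitosis list had 1 call, *Spc25*, with DESeq2, with the covariate and with the replicate block. The brakes had 3 with limma-voom, 3 with a CPM over 1, 0 to 5 without each library and 0 for cKO replicate 4 alone. With the covariate, *Ccng1* was called beside the brakes of the main edgeR fit. *Cdkn2a* was not called with DESeq2, without the filter or with the replicate block. *Wee1* was not called with upper quartile scaling, library totals or limma-voom, nor *Pkmyt1* with limma-voom. The immediate early genes had 2 with DESeq2, 0 to 1 without each library and 0 for cKO replicate 4 alone. The causes were not tested.

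The labels number the replicates alike in both genotypes. Deviations of libraries with the same number correlated at 0.024, 0.113, -0.0035 and 0.194, and 1 of the 4 numbers matched best with itself. These correlations cannot show whether libraries with the same number share a litter or batch, which the labels do not state. With a replicate block, which called 7.44% of all genes tested, 0 cell cycle genes were called, with 1 call among mitosis genes (*Spc25*), 4 among brakes and 4 among immediate early genes, and the log2 fold change of *Rrm1*, not called, was 0.0099.

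The comparison of cKO replicate 4 alone rests on 1 cKO library, assumed to vary like the controls. It gave log2 fold changes of 0.35 for *Cdkn1c*, 0.18 for *Cdkn1b*, 1.42 for *Cdkn2a*, 0.20 for *Pkmyt1* and -0.14 for *Wee1*. Some log2 fold changes of genes that edgeR did not call changed sign. With cKO replicate 4 alone they were 0.0721 for *Mcm6*, 0.0407 for *Pcna*, 0.13 for *Tyms*, 0.0359 for *Mcm2*, 0.16 for *Ccnd2*, 0.12 for *Rrm1*, 0.11 for *Ccna2*, 0.0777 for *Bub1b*, 0.12 for *Pola1*, 0.0089 for *Slbp*, 0.0622 for *Hmmr* and 0.0936 for *Ect2*. *Rrm1* was at 0.0138 with upper quartile scaling, 0.0066 with library totals, 0.0103 with limma-voom and 0.00063 with a CPM over 1. Leaving out each library gave -0.100 to 0.0111 for *Ccnd2*, -0.0977 to 0.0871 for *Rrm1*, -0.0300 to 0.116 for *Foxm1*, -0.129 to 0.0663 for *Ccna2* and -0.114 to 0.0528 for *Bub1b*. At these depths and with 4 mice per genotype, the interval reached past 1.3-fold for the genes outside the 33 that stayed within it.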
